A study of Mus musculus with 8 samples.

Results

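The genes described here are 33 target genes of the transcription factor p53, looked up as a set on a mouse expression array by gene symbol. A gene with several spots was represented by its brightest spot. Of the 33 genes, 31 were measured, among 24306 genes on the array, and all 31 were among the 17014 genes tested after the dimmest 30% had been removed. Trp53, the gene for p53 itself, and Bax were not analysed here. The 31 genes were split by role into 1 feedback gene, 6 arrest genes, 13 death genes, 5 repair genes and 6 genes of stress and metabolism.

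The cells were primary fibroblasts isolated from mouse hearts and cultured in DMEM with 10% FBS. They came from wild-type mice or from mice labelled Siah knockout, and were either kept untreated in normoxia or held in a chamber at 1% O2 for 6 h. Each of the 4 groups (wild type in normoxia, wild type in hypoxia, knockout-labelled in normoxia and knockout-labelled in hypoxia) had 2 samples, described as biological replicates. The question set by this design is how the response to low oxygen depends on Siah, a family of ubiquitin ligases. The labels do not say which Siah gene was deleted, whether the deletion was made in all cells, how old or of which sex the animals were, or which samples came from the same animal. The p-values therefore measure the spread between these 8 samples.

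In unstressed cells p53 is kept low by Mdm2, a ubiquitin ligase whose gene p53 itself switches on, so that a rise of p53 is followed by a rise of its own inhibitor. DNA damage and other stresses release p53 from Mdm2, and p53 then raises genes that halt the cell cycle, repair DNA or start cell death. Low oxygen is known to stabilise p53 mainly when it is severe or lasting, and the p53 that accumulates then may act on few of its usual target genes.

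Promoter sequences are shown for some of the genes that had a match, with the letters that p53 or the hypoxia-inducible factor HIF is known to read. RefSeq windows of 300 bases, from 250 before to 50 after a gene's start on GRCm38.p6, were read for 25 of the 33 genes. The genes without a window were Ddb2, Pmaip1, Perp, Tnfrsf10b, Trp53inp1, Rrm2b, Xpc and Zmat3. A gene may have several starts, as Aen had, and counted as matched if any of its windows matched. Whether the brightest spot measures the transcript of a printed window was not checked. The consensus for a p53 decamer, which reads the same on both strands, matched in 10 of the 25 (40.0%), against 9.55% of 27025 genes. A pair of decamers at most 1 base apart with at most 2 mismatches, the full p53 site, matched in 4 of the 25 (16.0%: Cdkn1a, Ccng1, Bax and Rps27l), against 0.807% of all genes. The full site may overlap a decamer match in the same window. A match describes the letters only and is not a measured binding site. The windows of 2 arrest genes follow whole, with the full p53 site in capitals:

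Cdkn1a, chr17:29090729-29091028, plus strand: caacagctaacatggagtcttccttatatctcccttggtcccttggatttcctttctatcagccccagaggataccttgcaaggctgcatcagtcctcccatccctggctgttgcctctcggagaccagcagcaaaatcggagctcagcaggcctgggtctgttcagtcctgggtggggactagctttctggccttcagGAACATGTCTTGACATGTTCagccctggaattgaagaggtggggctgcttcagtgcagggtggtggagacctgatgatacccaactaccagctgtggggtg

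Ccng1, chr11:40755237-40755536, minus strand: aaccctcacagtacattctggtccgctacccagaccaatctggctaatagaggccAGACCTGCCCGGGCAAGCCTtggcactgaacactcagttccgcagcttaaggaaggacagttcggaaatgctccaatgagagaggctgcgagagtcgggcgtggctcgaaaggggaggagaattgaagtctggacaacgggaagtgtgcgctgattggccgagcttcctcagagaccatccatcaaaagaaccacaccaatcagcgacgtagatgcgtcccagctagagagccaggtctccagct

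The full site of Rps27l is in capitals on the next line. In Mdm2, Polk and Sesn1 a single decamer matched and is in capitals within its surrounding bases:

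Rps27l, chr9:66946296-66946315, plus strand: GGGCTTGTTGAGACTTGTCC

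Mdm2, chr10:117710915-117710964, minus strand: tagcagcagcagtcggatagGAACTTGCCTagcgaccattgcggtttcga

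Polk, chr13:96519389-96519437, minus strand: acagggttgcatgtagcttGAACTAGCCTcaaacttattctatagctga

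Sesn1, chr10:41887246-41887295, plus strand: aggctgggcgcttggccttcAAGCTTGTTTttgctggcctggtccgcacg

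The core of the hypoxia response element, ACGTG on either strand, matched in 12 of the 25 windows (48.0%), against 21.8% of all genes. It lay in Trp53, Plk2, Bax, Bbc3, Aen, Apaf1, Fas, Ercc5, Ak1 and Rps27l. Those of them that were measured differed by -0.39 (Plk2) to 0.12 (Apaf1) in hypoxia, averaged over the genotypes. The core also lay in Gdf15 and Eda2r, the members with the smallest p-values under hypoxia. There, as also in Trp53, Bax, Bbc3, Aen and Fas, the overlapping reverse-strand match CACGT gives the run CACGTG. The capitals mark 1 of these overlapping matches:

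Gdf15, chr8:70632154-70632198, minus strand: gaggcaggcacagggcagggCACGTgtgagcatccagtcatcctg

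Eda2r, chrX:97377160-97377185, minus strand: gatttgatctgttgttgctaCACGTg

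All values below are the deposited log2 intensities, on which a difference of 1 is a doubling. Differences give hypoxia minus normoxia for the treatment and knockout-labelled minus wild type for the genotype, from 1 limma fit over all 17014 genes and all 8 samples. SE is the moderated standard error of that fit. Genes whose adjusted p was under 0.05 (Benjamini-Hochberg over all genes tested) are said to be called.

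As a check of the treatment, 6 HIF target genes were read, and all 6 were higher in hypoxia by 1.49 to 4.14, averaged over the genotypes. Bnip3, a mitochondrial protein that promotes mitophagy, gave 10.89 and 11.42 in wild-type normoxia, 13.33 and 14.26 in wild-type hypoxia, 10.54 and 10.45 in knockout-labelled normoxia, and 13.29 and 12.60 in knockout-labelled hypoxia. None of the 6 was called by limma (0 of 6, all 6 at an unadjusted p under 0.05, smallest adjusted p = 0.147). The Siah2 spot read 9.04 and 8.71 in wild-type normoxia, 9.55 and 8.96 in wild-type hypoxia, 6.60 and 7.39 in knockout-labelled normoxia, and 9.29 and 8.87 in knockout-labelled hypoxia. It was thus low only in the knockout-labelled samples in normoxia, and the knockout-labelled samples in hypoxia lay within the wild-type range, for which reason the genotype is called knockout-labelled throughout. Whether the spot lies in a deleted part of the gene is not known here. Eif2s3y, a gene of the Y chromosome, lay at 8.80 to 9.10 in the wild-type samples and at 3.39 to 4.01 in the knockout-labelled samples. By this gene, genotype and sex of the animals cannot be told apart. It was 1 of 4 sex-linked genes tested, with Xist, Kdm5d and Uty. Averaged over oxygen, 3 of the 4 were lower and 1 higher in knockout-labelled cells. Their differences ran from -5.33 to 1.58, so the median of -0.25 stands for none of them. In limma 1 was lower and 1 higher at an unadjusted p under 0.05. The 8 fibroblast markers had mean levels of 12.2 to 12.6 in the 8 samples, but single markers differed between the genotypes, from -1.25 in Lum and -0.79 in Dcn to 1.05 in Thy1, with 3 lower and 1 higher at an unadjusted p under 0.05 in limma. Of the 5 cardiomyocyte markers, Myh6, Actn2 and Tnni3 were too dim to be tested. The other cardiomyocyte markers were higher in knockout-labelled samples, Tnnt2 by 1.85 (8.45 to 9.51 in wild-type and 10.71 to 10.93 in knockout-labelled samples) and Ryr2 by 0.75, both at an unadjusted p under 0.05 in limma. The 14 macrophage markers had mean levels of 12.0 to 12.5 in wild-type and 10.7 to 11.6 in knockout-labelled samples, so macrophage transcripts were present in all 8. In such bulk samples fewer cells of a type and less RNA per cell cannot be told apart.

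Under hypoxia none of the 31 p53 target genes was called, in wild-type cells, in knockout-labelled cells or in their average (0 of 31 in each, against 0% of all genes). Averaged over the genotypes, 24 of the 31 were lower and 7 higher in hypoxia, with a median difference of -0.12, while 53.2% of all genes were lower with a median of -0.01. At an unadjusted p under 0.05, 1 member was lower (Eda2r), against 1.48% of all genes, and 0 were higher, against 2.28%. The SD between replicates of the members' median level was 0.179 for a single sample, which is not the spread of an averaged difference. In wild-type cells alone 24 of 31 were lower, with a median of -0.16, and in knockout-labelled cells 26 of 31, with a median of -0.15. The wild-type count moved most with single samples. Without the second wild-type normoxia sample 14 of 31 were lower in wild-type cells and the median was 0.01. Without the first wild-type hypoxia sample 17 were lower and the median was -0.0081. In knockout-labelled cells 20 to 26 of 31 were lower on leaving out each sample, with medians of -0.23 to -0.04.

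**Figure D1:**
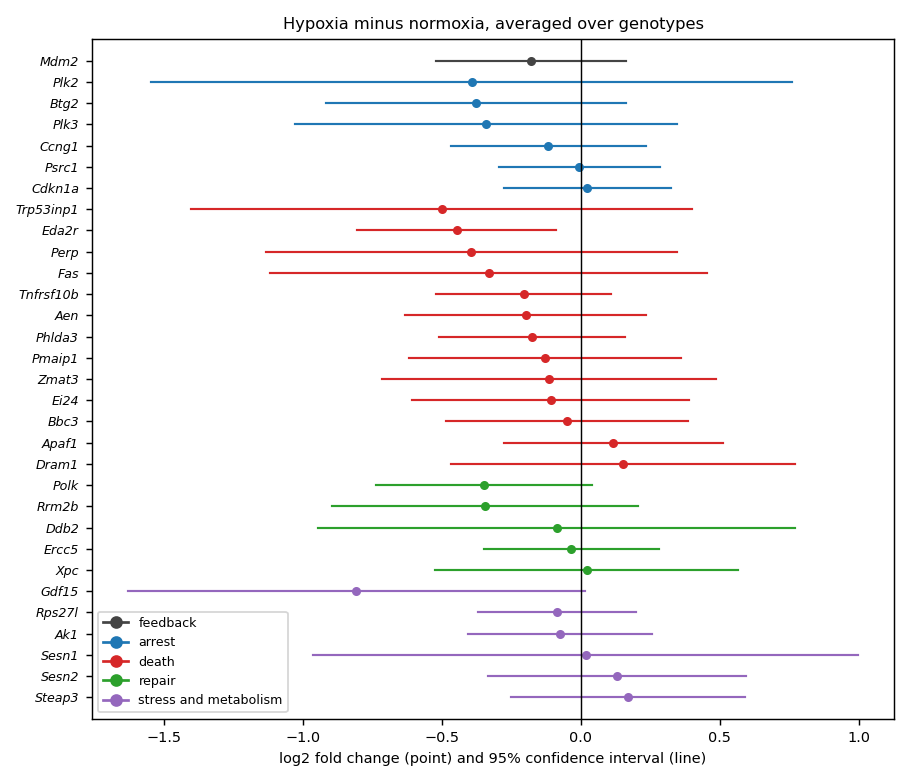
Each point is the log2 difference between hypoxia and normoxia of 1 of the 31 genes, averaged over the genotypes, and each line its 95% confidence interval, with genes on the vertical axis grouped and coloured by role. Of the 31 points, 24 lie below 0, and Eda2r is the gene whose interval, from -0.80 to -0.09, does not reach 0.

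The mean level of the 13 death genes was 9.53 and 9.74 in wild-type normoxia, 9.29 and 9.58 in wild-type hypoxia, 9.97 and 9.72 in knockout-labelled normoxia, and 9.71 and 9.65 in knockout-labelled hypoxia. The 6 arrest genes had means of 10.91 and 10.46, 10.54 and 10.38, 10.54 and 10.86, and 10.37 and 10.67 in the same order of groups. The 5 repair genes had means of 6.85 and 7.14, 6.69 and 6.97, 7.20 and 6.99, and 6.85 and 7.03. Hypoxia and normoxia samples overlapped in each of these means except that of the death genes in knockout-labelled cells. Over all 31 genes the mean was 9.74 and 9.86 in wild-type normoxia, 9.52 and 9.73 in wild-type hypoxia, 9.99 and 9.85 in knockout-labelled normoxia, and 9.77 and 9.75 in knockout-labelled hypoxia. It was lower in hypoxia at either replicate number of each genotype.

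Mdm2, the feedback gene, gave 12.72 and 13.03 in wild-type normoxia, 12.72 and 12.71 in wild-type hypoxia, 13.26 and 13.28 in knockout-labelled normoxia, and 13.22 and 12.93 in knockout-labelled hypoxia. Hypoxia samples lay below normoxia samples in knockout-labelled cells, while the wild-type groups overlapped. Hypoxia below normoxia without overlap held for 7 of 31 members in knockout-labelled cells, against 11.4% of all genes. In wild-type cells it held for 4 of 31, against 11.6%. The average difference of Mdm2 was -0.18 (SE 0.14, 95% confidence interval -0.52 to 0.16).

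Among the arrest genes, 5 of 6 were lower in hypoxia, with a median of -0.23. Cdkn1a, which encodes the cyclin-dependent kinase inhibitor p21 and is the best known target of p53, gave 12.87 and 12.97 in wild-type normoxia, 12.83 and 12.99 in wild-type hypoxia, 12.93 and 12.73 in knockout-labelled normoxia, and 12.87 and 12.89 in knockout-labelled hypoxia. All 4 groups overlapped within 0.26, and the average difference was 0.02 (SE 0.12, interval -0.28 to 0.32). Btg2, an antiproliferative regulator of messenger RNA decay, gave 10.10 and 9.23 in wild-type normoxia, 9.34 and 9.16 in wild-type hypoxia, 9.29 and 9.43 in knockout-labelled normoxia, and 8.85 and 9.19 in knockout-labelled hypoxia. Its hypoxia samples lay below its normoxia samples in knockout-labelled cells and overlapped with them in wild-type cells, where 1 normoxia sample stood high. The average difference of Btg2 was -0.38 (SE 0.22, interval -0.92 to 0.16). Ccng1, cyclin G1, a cyclin that acts back on Mdm2 and p53, differed by -0.12 (SE 0.14), and Psrc1, a microtubule regulator of the mitotic spindle, by -0.0046 (SE 0.12). The stress-regulated polo-like kinases Plk2 and Plk3 differed by -0.39 (SE 0.48) and -0.34 (SE 0.28), with SEs that came from replicates far apart.

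Among the death genes, 11 of 13 were lower in hypoxia, with a median of -0.18. Eda2r, a receptor of the tumour necrosis factor receptor family that binds ectodysplasin A2, gave 8.65 and 8.57 in wild-type normoxia, 8.33 and 7.91 in wild-type hypoxia, 9.03 and 9.09 in knockout-labelled normoxia, and 8.55 and 8.77 in knockout-labelled hypoxia. Every hypoxia sample was below both normoxia samples of its genotype. The average difference was -0.45 (SE 0.15, limma adjusted p = 1.00), and the dimmer spots of Eda2r differed by -0.32 and -0.07. Tnfrsf10b, the death receptor for the ligand TRAIL, gave 10.96 and 10.69 in wild-type normoxia, 10.66 and 10.59 in wild-type hypoxia, 11.11 and 10.94 in knockout-labelled normoxia, and 10.77 and 10.85 in knockout-labelled hypoxia. Its groups did not overlap in either genotype, though the gap in wild-type cells was narrow. Its average difference was -0.21 (SE 0.13, limma adjusted p = 1.00). With Gdf15 these were the 3 of 31 members lower in hypoxia with no overlap in both genotypes, against 2.27% of all genes, and 0 of 31 were higher with no overlap in both, against 2.56%.

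Of the other death genes, Trp53inp1, a stress protein that promotes autophagy and p53 activity, differed by -0.50 (SE 0.37) and Fas, the death receptor for Fas ligand, by -0.33 (SE 0.32). Perp, a tetraspan membrane protein of desmosomes, differed by -0.39 (SE 0.31). The mitochondrial killers Bbc3 (Puma) and Pmaip1 (Noxa), which neutralise Bcl-2 family survival proteins, differed by -0.05 (SE 0.18) and -0.13 (SE 0.20). Aen, a nuclease active in apoptosis, differed by -0.20 (SE 0.18), Ei24, an endoplasmic reticulum protein, by -0.11 (SE 0.21), Phlda3, which blocks membrane binding of the survival kinase Akt, by -0.18 (SE 0.14), and Zmat3, an RNA-binding regulator of splicing, by -0.11 (SE 0.25). Higher in hypoxia were Apaf1, the scaffold of the apoptosome that activates caspases, by 0.12 (SE 0.16), and Dram1, a lysosomal membrane protein that promotes autophagy, by 0.15 (SE 0.26). The 95% confidence interval of each of these differences held 0.

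Among the repair genes, 4 of 5 were lower in hypoxia, with a median of -0.09. Polk, a translesion DNA polymerase, gave 8.77 and 8.96 in wild-type normoxia, 8.44 and 8.95 in wild-type hypoxia, 9.31 and 9.18 in knockout-labelled normoxia, and 8.65 and 8.80 in knockout-labelled hypoxia. The knockout-labelled groups did not overlap and the wild-type groups did. Polk differed by -0.35 on average (SE 0.16, interval -0.74 to 0.04). Rrm2b, a subunit of ribonucleotide reductase that supplies nucleotides for repair, gave 5.83 and 5.43 in wild-type normoxia, 4.95 and 5.23 in wild-type hypoxia, 5.88 and 5.12 in knockout-labelled normoxia, and 5.15 and 5.55 in knockout-labelled hypoxia. Here the wild-type groups did not overlap and the knockout-labelled groups did. Rrm2b differed by -0.34 on average (SE 0.23, interval -0.89 to 0.21). The nucleotide excision repair genes lay close to 0: Ddb2 and Xpc, which recognise damage, differed by -0.09 (SE 0.35) and 0.02 (SE 0.23), and the endonuclease Ercc5 by -0.03 (SE 0.13).

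Among the genes of stress and metabolism, 3 of 6 were lower in hypoxia, with a median of -0.03. Gdf15, a stress hormone of the TGF-beta family, gave 9.93 and 10.96 in wild-type normoxia, 9.12 and 9.88 in wild-type hypoxia, 11.46 and 10.55 in knockout-labelled normoxia, and 10.48 and 10.18 in knockout-labelled hypoxia. Every hypoxia sample lay below both normoxia samples of its genotype, with a narrow gap in wild-type cells. The average difference was -0.81 (SE 0.34, interval -1.63 to 0.01, limma adjusted p = 1.00), the largest among the 31 genes. Sesn1 and Sesn2, sestrins that restrain the growth kinase mTORC1, differed by 0.02 (SE 0.40) and 0.13 (SE 0.19). Steap3, a ferrireductase of endosomes, differed by 0.17 (SE 0.17), Ak1, adenylate kinase, by -0.07 (SE 0.14) and Rps27l, a ribosomal protein, by -0.09 (SE 0.12). Phlda3, Ak1 and Rps27l had mean levels above 14 on a scale that ends at 16.0, and saturation flags were not used here.

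**Figure D2:**
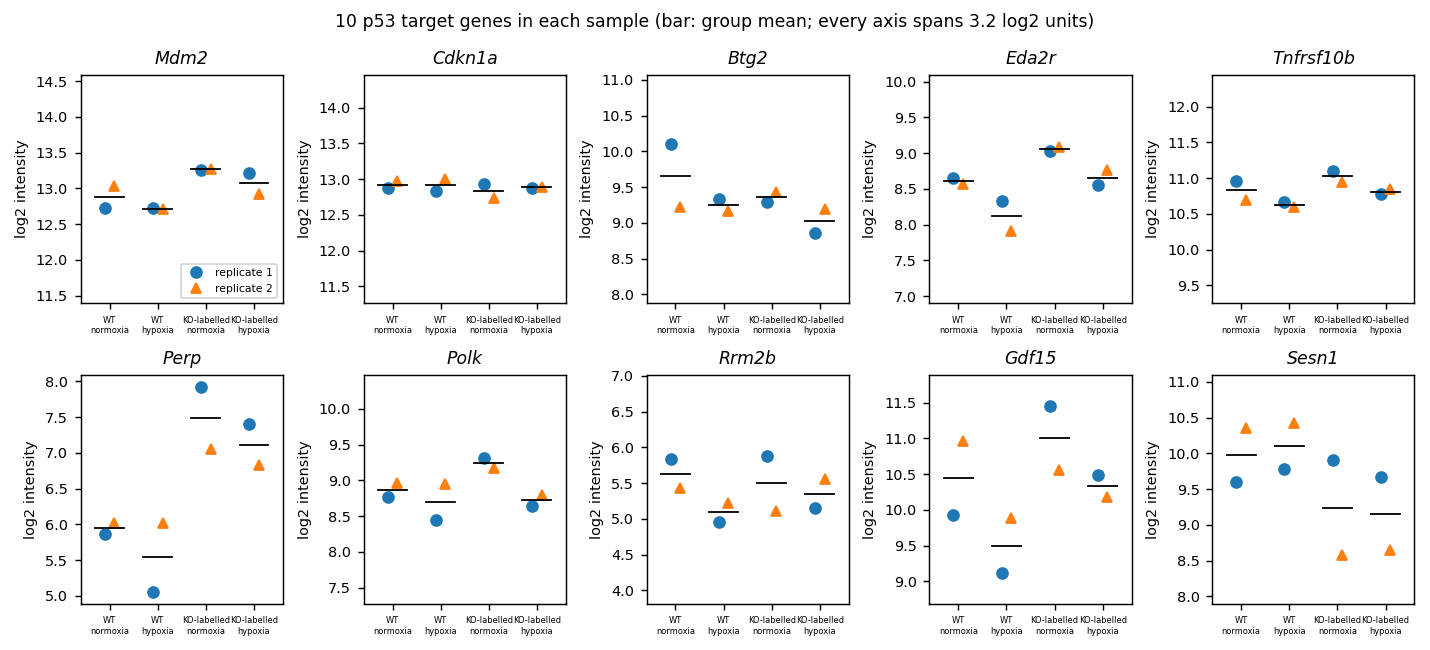
The vertical axes give the log2 intensity of 10 of the genes in each of the 8 samples, circles for replicate 1 and triangles for replicate 2, with bars at the group means, and the horizontal axes give the 4 groups (KO-labelled is knockout-labelled). In Perp the 4 knockout-labelled samples, at 6.83 to 7.92, lie above the 4 wild-type samples, at 5.06 to 6.02, whereas Cdkn1a spans no more than 0.26.

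Between the genotypes none of the 31 genes was called either. In normoxia 0 of 31 were called and in hypoxia 0 of 31, against 0.00588% of all genes in each. An unadjusted p under 0.05 in limma was reached in normoxia by 1 of 31, against 1102 of 17014 genes. In hypoxia it was reached by 2 of 31, against 1062 of 17014. Averaged over oxygen, 0 of 31 were called, against 0.047%. There 21 of the 31 genes were higher in knockout-labelled cells, with a median difference of 0.07, while 54.0% of all genes were higher with a median of 0.03. At an unadjusted p under 0.05 in limma 3 members were higher (Perp, Eda2r and Mdm2), against 4.13% of all genes, and 0 were lower, against 5.82%. By role, 1 of 1 feedback genes, 3 of 6 arrest genes, 9 of 13 death genes, 5 of 5 repair genes and 3 of 6 genes of stress and metabolism were higher. The medians were 0.02 for arrest, 0.14 for death, 0.06 for repair and 0.01 for stress and metabolism.

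Perp differed most. In the values plotted by sample all 4 knockout-labelled samples lay above all 4 wild-type samples, which held for 1 of 31 members, against 3.96% of all genes, and 0 of 31 lay below, against 4.85%. Perp gave 5.87 and 6.02 in wild-type normoxia, 5.06 and 6.02 in wild-type hypoxia, 7.92 and 7.06 in knockout-labelled normoxia, and 7.40 and 6.83 in knockout-labelled hypoxia. The difference was 1.55 in normoxia, 1.57 in hypoxia and 1.56 on average (SE 0.31, interval 0.82 to 2.30), a 2.95-fold higher level with a limma adjusted p of 0.161. Perp was measured by 1 spot. The mean level of 4 epicardial and mesothelial markers (Wt1, Upk3b, Msln and Krt19, with 0 of the 4 too dim to test) was 6.81 to 7.86 in wild-type and 7.75 to 8.34 in knockout-labelled samples, and 3 of the 4 were higher in knockout-labelled cells by 0.83 to 1.42. Wt1 differed by -0.59. All 14 macrophage markers were lower in knockout-labelled cells, with a median of -1.21, 12 of them at an unadjusted p under 0.05 in limma. The part of these cell types, and of the cardiomyocytes whose markers are given above, in the differences of Perp and of the other genes was not tested.

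Mdm2 was higher in both knockout-labelled samples than in both wild-type samples at either oxygen level. Its average difference was 0.37 (SE 0.14, interval 0.03 to 0.71, limma adjusted p = 0.450), with 0.17 on its dimmer spot. Eda2r showed the same order, with an average of 0.49 (SE 0.15, interval 0.13 to 0.85, limma adjusted p = 0.330) and 0.39 and -0.03 on its dimmer spots. This order held in normoxia for 4 of 31 members, against 16.7% of all genes. In hypoxia it held for 7 of 31, against 16.4%. Tnfrsf10b differed by 0.19 (SE 0.13, interval -0.13 to 0.50) and Gdf15 by 0.70 (SE 0.34, interval -0.12 to 1.52), and in both the normoxia groups overlapped.

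Sesn1 went the other way. It gave 9.61 and 10.36 in wild-type normoxia, 9.78 and 10.42 in wild-type hypoxia, 9.90 and 8.57 in knockout-labelled normoxia, and 9.66 and 8.64 in knockout-labelled hypoxia. Its low values came from the second knockout-labelled sample at each oxygen level. The average difference was -0.85 (SE 0.40, interval -1.82 to 0.13, limma adjusted p = 0.586). Cdkn1a differed by -0.06 on its brightest spot (SE 0.12, interval -0.36 to 0.24), and its groups overlapped there. Its dimmer spots differed by -0.28 and -0.67, and the mean over its 3 spots by -0.34 (limma adjusted p = 0.515). The remaining arrest genes ranged from -0.26 in Btg2 to 0.33 in Plk2, the repair genes from 0.03 in Ercc5 to 0.20 in Polk, and the death genes other than Perp and Eda2r from -0.13 in Bbc3 to 0.34 in Fas. None of these reached an unadjusted p under 0.05 in limma.

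**Figure D3:**
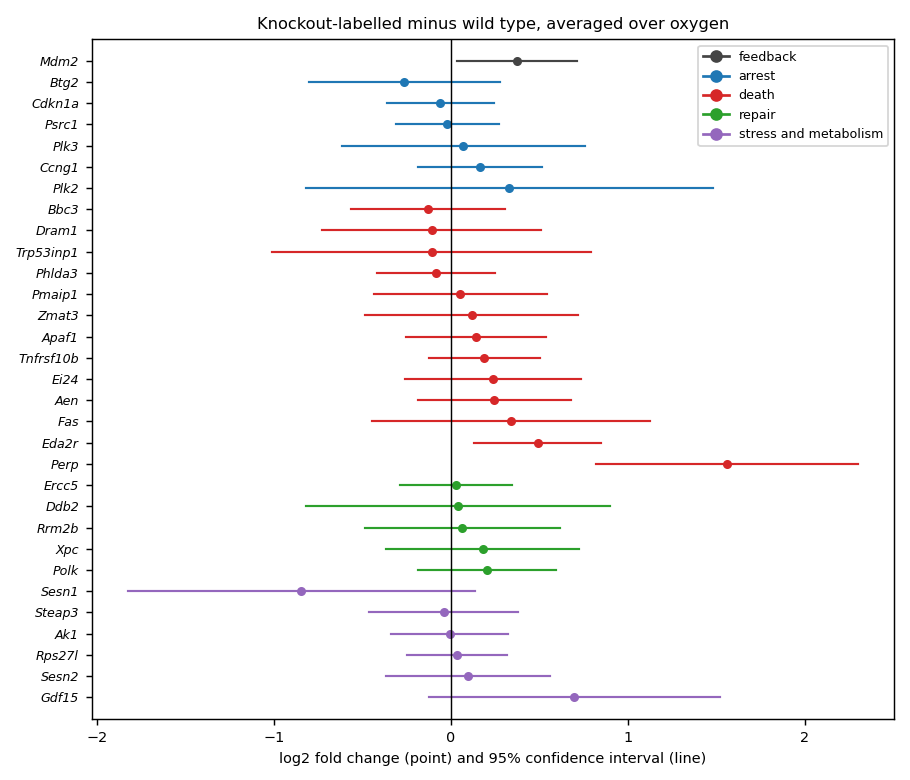
Each point is the log2 difference between knockout-labelled and wild-type cells of 1 of the 31 genes, averaged over oxygen, and each line its 95% confidence interval, with genes on the vertical axis grouped and coloured by role. The intervals of Perp (0.82 to 2.30), Eda2r (0.13 to 0.85) and Mdm2 (0.03 to 0.71) lie above 0.

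The response to hypoxia was not shown to differ between the genotypes for any of the 31 genes (0 of 31 called by limma, against 0% of all genes). An unadjusted p under 0.05 in limma was reached by 0 of 31, against 416 of 17014 genes. The median of the differences of responses was -0.01, and that over all genes was -0.0016. The largest was that of Apaf1, at 0.59 (SE 0.33, interval -0.20 to 1.38, limma adjusted p = 1.00), from responses of -0.18 in the wild type and 0.41 in the knockout-labelled cells. Polk differed by -0.35 (SE 0.32), Rrm2b by 0.40 (SE 0.45) and Ddb2 by 0.44 (SE 0.71). For Cdkn1a the difference was 0.06 (interval -0.54 to 0.66) and for Mdm2 -0.03 (interval -0.71 to 0.65), intervals wide enough to hold changes larger than those measured in either genotype.

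Some members differed between replicates 1 and 2 in one order in wild-type and in the opposite order in knockout-labelled samples, at shares near those of all genes. Plk2 was 9.51 against 8.01 in wild-type normoxia and 8.51 against 7.98 in wild-type hypoxia (replicate 1 against 2), but 8.29 against 9.65 in knockout-labelled normoxia and 8.22 against 9.19 in knockout-labelled hypoxia. Plk3 showed the same order, with 10.37 against 9.63, 9.96 against 9.27, 9.70 against 10.35 and 9.48 against 9.98. Together with Btg2, Aen and Eda2r these made 5 of 31 members, against 17.1% of all genes. The opposite order held for 9 of 31 members (Ccng1, Bbc3, Pmaip1, Perp, Fas, Trp53inp1, Sesn1, Sesn2 and Gdf15), against 21.3% of all genes. Fas was an example, with 8.66 against 9.52, 8.34 against 9.18, 9.81 against 9.05 and 9.37 against 8.83 in the same 4 groups. Ddb2 was the 1 member of 31 whose replicates ran the same way in all 4 groups, against 7.43% of all genes. The macrophage markers moved in the order of Fas. From replicate 1 to 2 they went from 12.1 to 12.5 in wild-type normoxia and from 11.6 to 10.7 in knockout-labelled normoxia. The mean of the 9 mitosis genes described below did so too, from 10.4 to 10.9 and from 11.1 to 10.4. That of the 6 ATF4 targets described below moved in the order of Plk2, from 10.1 to 9.6 and from 9.9 to 10.5. The part of these gene lists in the replicate order was not tested. The labels do not say what a replicate number stands for.

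**Figure D4:**
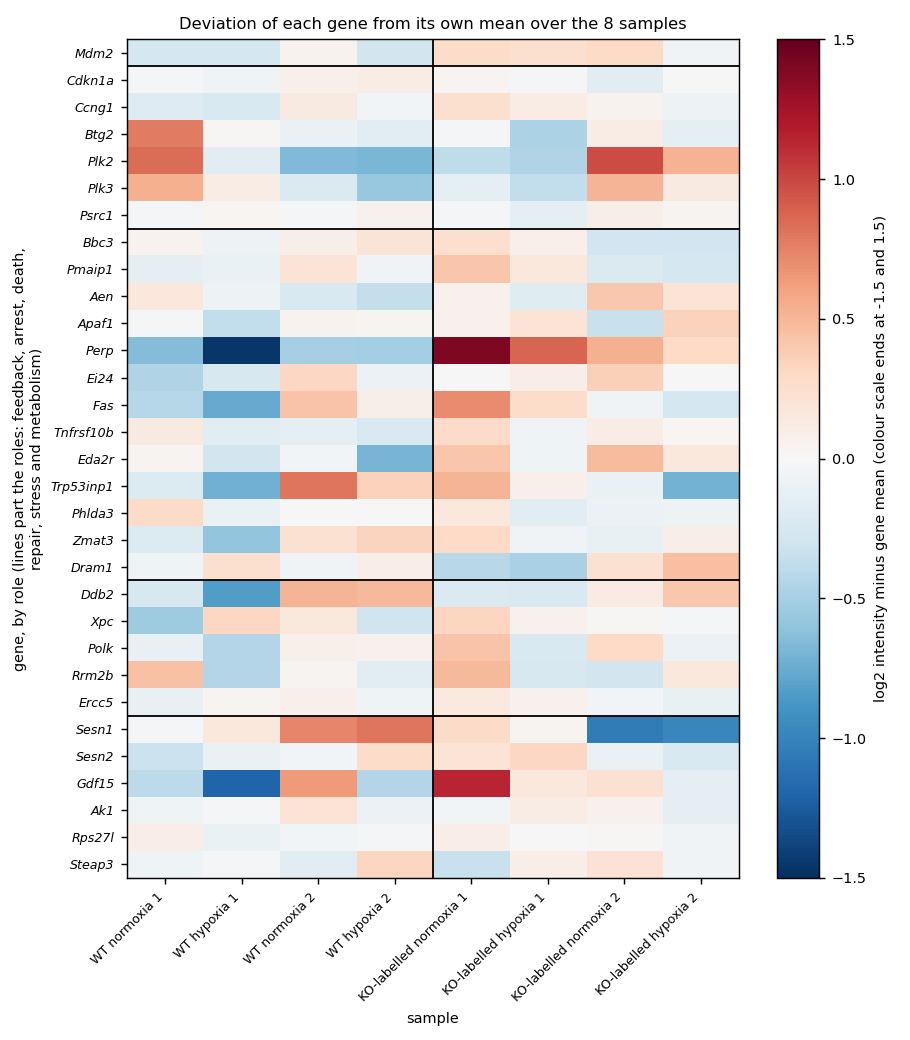
Colours give each gene's log2 intensity minus its own mean over the 8 samples, red above and blue below, with samples on the horizontal axis and the 31 genes by role on the vertical axis. The opposite order of the replicates between the genotypes is seen in Plk2, Plk3, Fas and Sesn1, and the higher level of Perp in all 4 knockout-labelled samples.

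Genes that act on p53 or are reached by it were read from further lists. Of 14 regulators of p53, 0 were called in either average. Under hypoxia 9 of 14 were lower, with a median of -0.03 and 0 at an unadjusted p under 0.05 in limma, and Atm, the kinase that signals DNA breaks to p53, differed by 0.33 (SE 0.19) and Ppm1d by -0.13 (SE 0.14). Between the genotypes 8 of 14 were higher with a median of 0.06, and 1 reached an unadjusted p under 0.05: Ppm1d, a phosphatase that reverses p53 activation and is itself a p53 target, at 0.37 (SE 0.14, limma adjusted p = 0.452). Trp73, a relative of p53, differed by -0.52 (SE 0.29).

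Of 14 further p53 targets, 9 were lower in hypoxia, with a median of -0.08 (Rprm -0.70, SE 0.33, and Epha2 -0.41, SE 0.19), and 9 were higher in knockout-labelled cells, with a median of 0.18. None was called by limma in either average, and 2 reached an unadjusted p under 0.05 between the genotypes. Rprm, reprimo, a mediator of arrest before mitosis, gave 5.92 and 5.76 in wild-type normoxia, 4.40 and 5.35 in wild-type hypoxia, 7.13 and 6.36 in knockout-labelled normoxia, and 6.80 and 5.82 in knockout-labelled hypoxia. It was 1.17 higher in knockout-labelled cells (SE 0.33, limma adjusted p = 0.299), with overlap between the genotypes across oxygen levels. Epha2, an ephrin receptor kinase, gave 11.17 and 10.73 in wild-type normoxia, 10.64 and 10.17 in wild-type hypoxia, 11.51 and 11.66 in knockout-labelled normoxia, and 11.08 and 11.52 in knockout-labelled hypoxia. It was 0.77 higher in knockout-labelled cells (SE 0.19, limma adjusted p = 0.246), also with overlap between the genotypes across oxygen levels.

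Of 9 mitosis genes, which p53 lowers through p21, 6 were higher in hypoxia, with a median of 0.07, and 8 were higher in knockout-labelled cells, with a median of 0.10. Bub1, a kinase of the spindle checkpoint, differed by 0.38 (SE 0.32) and Mki67, a proliferation marker, by 0.18 (SE 0.29) in hypoxia. The mitotic kinases Plk1 and Cdk1 differed by 0.29 (SE 0.24) and 0.32 (SE 0.30) between the genotypes. Of 6 targets of ATF4, the factor of the integrated stress response that also drives Sesn2 and Trib3, 3 were higher and 3 lower in hypoxia, and the median was 0.18. Trib3, a pseudokinase, was 0.82 higher (SE 0.18, limma adjusted p = 0.742) and Atf3, a stress-induced transcription factor, 0.71 higher (SE 0.24, limma adjusted p = 1.00), the 2 of 6 with an unadjusted p under 0.05. Between the genotypes Trib3 differed by 0.37 (SE 0.18) and Chac1, which degrades glutathione, by 0.72 (SE 0.42). No gene of the mitosis or ATF4 lists was called by limma.

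The brightest spot did not always speak for the gene. Of the 31 genes, 16 had several spots and 15 had 1. Among 23 further spots bright enough to be tested, 16 had the same sign as the brightest spot of the gene under hypoxia, and 16 between the genotypes. For Trp53inp1 the brightest spot differed by -0.11 between the genotypes and a dimmer spot by 1.12, so its direction in knockout-labelled cells was not settled. With the mean over spots in place of the brightest spot, Eda2r differed by -0.28 under hypoxia and 0.28 between the genotypes, and no longer reached an unadjusted p under 0.05 in either. Mdm2 then differed by 0.27 between the genotypes, likewise without an unadjusted p under 0.05, and Ei24 by 0.49. Under hypoxia Rrm2b differed by -0.14 and Ercc5 by -0.25. The other spots of Rrm2b and Ercc5, with means of 2.96 to 3.19, were too dim to be tested but entered these means over spots. By the same rule 1 member under hypoxia (Gdf15) had an unadjusted p under 0.05 in limma, against 641 of 17014 genes. Between the genotypes 3 did (Cdkn1a, Perp and Ei24), against 1612 of 17014, and 0 were called in either.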

How the data were processed

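RNA of 8 samples was labelled with Cy3 and hybridised to single-colour Agilent arrays, per the labels' protocols. The authors deposited a table of 62976 spots by 8 samples, whose values, from 2.13 to 16.0, were taken as log2 intensities. The log base, the background correction and the normalization are not given in the sources used here, and limma was used per the submitters' processing notes. The columns already shared a median of 3.94, and 10 values were missing. Scanner files, detection flags and slides were not used here, so no array limits, background setting or slide block could be tried. The number of arrays, 2 a group, limits the precision.

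Gene names came from the platform annotation and were updated through RefSeq GRCm38.p6 (43941 spots with 1 gene, 19035 with none, 0 with several). The brightest spot stood for each gene, and the dimmest 30% of 24306 genes, below a mean of 3.39, were removed. The 17014 genes left were fitted in limma 3.58.1 under R 4.3.3 (lmFit and eBayes, a mean per group, 4 residual and 2.25 prior degrees of freedom), with Benjamini-Hochberg adjustment within each of 7 comparisons. The fit was tested on simulated data. The members and lists were chosen with earlier results of these data known. Values in every sample are given for Mdm2, Cdkn1a and the 6 members with the smallest p in each averaged comparison, and differences for called genes of the further gene lists, or where none was called at most 2 by p-value. Plk2, Plk3 and Fas, as examples of the replicate order, the single marker genes and the sample values of Rprm, Epha2, Bnip3 and Siah2 were chosen after their values were seen. Alternatives were another normalization, filter, spot rule or variance model, fits of the groups compared, replicate blocks and leaving out single samples.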

Additional observations from a re-analysis of the deposited data

How the results depend on the processing

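The count of called members stayed at 0 in all 7 comparisons under every alternative run, removal of each sample included, with 1 exception. That exception was the genotype comparison averaged over oxygen with crossed replicate numbers as a block, an alternative chosen after seeing the data, where 1 member was called (Perp, 1.56, limma adjusted p = 0.0303) and 453 genes in all, against 8 without a block; the cause was not tested. With the replicate number as a block 0 members were called in each comparison, and 1 gene in all for the genotype average. The differences of replicate 1 minus 2, over 17014 genes, correlated between groups at 0.31 and 0.34 within the genotypes. Across the genotypes these differences correlated at -0.38 to -0.26. The labels do not say that a number marks a shared animal or culture, and these numbers are too few to settle it, so the blocks stand here as alternatives. With the replicate number within each genotype as a fixed block, or crossed numbers, both chosen after seeing the data, 6 members had an unadjusted p under 0.05 for the hypoxia average, all 6 lower (Plk3, Fas, Eda2r, Trp53inp1, Polk and Gdf15; 1238 and 1211 genes in all), against 1 (639) without a block and 3 (1204) with the random block, and 0 were called. For the genotype average 7 did with crossed numbers (3113 genes in all), against 3 (1693) without a block. With the replicate number as a block, or with the random block, 2 did (Perp and Eda2r; 1432 and 1107 genes in all). Mdm2 was thus not among them under either of these 2 blocks. Calls over all genes moved for the genotype average to 62 with a variance trend, 45 with the dimmest 50% removed and 1 with a random block for the replicate number within genotype, and for the hypoxia average from 0 to 15 with a variance trend and 15 with the random block. On leaving out each sample, the members lower in hypoxia numbered 14 to 25 in wild-type cells, 20 to 26 in knockout-labelled cells and 21 to 26 on average; the lowest 14 arose without wild-type normoxia replicate 2. The members' median then ran from -0.21 to 0.01 in wild-type and -0.23 to -0.04 in knockout-labelled cells, and from 0.03 to 0.16 for the genotype average. Single genes turned sign with the mean over spots (hypoxia: Ei24 0.0039, Xpc -0.21; genotype: Apaf1 -0.042, Trp53inp1 0.50, Ddb2 -0.020) and, for Ak1 between the genotypes, with quantile normalization (0.036) and a common 75th percentile (0.00087). On leaving out samples, 12 members turned sign under hypoxia (Cdkn1a -0.027 to 0.074, Psrc1 -0.050 to 0.041, Bbc3 -0.18 to 0.083, Pmaip1 -0.29 to 0.028, Ei24 -0.30 to 0.083, Zmat3 -0.34 to 0.12, Dram1 -0.084 to 0.39, Ddb2 -0.42 to 0.24, Xpc -0.15 to 0.20, Ercc5 -0.082 to 0.015, Sesn1 -0.31 to 0.35, Sesn2 -0.0037 to 0.26) and 14 between the genotypes (Plk2 -0.044 to 0.71, Plk3 -0.12 to 0.26, Psrc1 -0.066 to 0.025, Bbc3 -0.26 to 0.0048, Pmaip1 -0.11 to 0.21, Trp53inp1 -0.38 to 0.16, Zmat3 -0.11 to 0.35, Dram1 -0.34 to 0.12, Ddb2 -0.29 to 0.37, Rrm2b -0.13 to 0.25, Ercc5 -0.02 to 0.076, Sesn2 -0.037 to 0.23, Ak1 -0.077 to 0.061, Steap3 -0.17 to 0.096). Perp, Eda2r, Mdm2, Gdf15, Ccng1, Btg2, Aen, Fas, Tnfrsf10b, Phlda3, Polk and Rps27l turned sign under none in either average. The causes were not tested.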
